A study of Mus musculus with 12 samples.

Results

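Pnmt, Ren1, Gsg1l, Nr2e3, Adam8, Klhl23, Psmb10, Gpha2 and Olfml3 are 9 genes that were chosen by name because they led the gene lists of somatic cell clusters in mouse gonads lacking the +KTS variant of WT1. They are 9 of 32285 genes counted in the files, and all 9 passed the filter on low counts that left 17726 genes for testing. Their levels, the share of cells in which each was detected and their joint detection with Cyp11a1 were taken in 12 libraries. The label given to the set, that these genes are switched on without +KTS, did not describe all of their values. The WT and +KTS KO libraries overlapped for Adam8 and Nr2e3 in XX gonads and for Pnmt, Ren1 and Olfml3 in XY gonads. The levels in +KTS KO and their difference from WT chose the genes and are therefore given as a description, with no test of that difference.

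Gonads of E12 mouse embryos were profiled by droplet single-cell RNA sequencing, in which each captured RNA molecule is counted once by a unique molecular identifier (UMI). The groups were XX and XY gonads of wild-type embryos (WT), of embryos homozygous for an allele that makes no -KTS variant (-KTS KO) and of embryos homozygous for an allele that makes no +KTS variant (+KTS KO), with 2 libraries in each of the 6 groups. The study reports more -KTS transcript in +KTS KO than in control gonads, with similar total WT1 protein in XY, and attributes the XY sex reversal to the raised -KTS. Loss of +KTS and gain of -KTS go together in the +KTS KO and cannot be told apart here. The alleles are not limited to a cell type, the lines were kept on a mixed B6CBAF1/JRj background, and the gonads were separated from the mesonephros and dissociated with trypsin. Embryos were not all of the same tail somite stage, and the study's methods describe -KTS KO samples as pools of gonads, although its sample list has 1 entry for one of them, so stage, embryo and technical variation cannot be told apart within a group.

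WT1 is a zinc finger protein needed for the gonad to form. Alternative splicing places the amino acids lysine, threonine and serine (KTS) between its last zinc fingers or leaves them out; the -KTS form binds DNA as a transcription factor, while the +KTS form binds DNA weakly and associates with RNA. At this stage the somatic cells of the XY gonad become Sertoli cells and those of the XX gonad become pre-granulosa cells, both from a common supporting precursor. The 9 genes have varied roles. Pnmt makes adrenaline from noradrenaline, Ren1 encodes renin, the protease that starts the angiotensin cascade, Gpha2 is the alpha subunit of the glycoprotein hormone thyrostimulin, and Olfml3 is a secreted matrix protein with an olfactomedin domain. Gsg1l is an auxiliary subunit of AMPA-type glutamate receptors and Adam8 a membrane metalloproteinase. Nr2e3 is an orphan nuclear receptor known from photoreceptors, Klhl23 is a Kelch-repeat protein of a family that selects substrates for the CUL3 ubiquitin ligase, and Psmb10 is a catalytic subunit of the immunoproteasome. Cyp11a1, the reference for joint detection, cuts the side chain of cholesterol in the first step of steroid synthesis.

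In GRCm38 (mm10) the members lie on 8 chromosomes. Pnmt is at chr11:98386450-98388181 (plus strand), Ren1 at chr1:133350510-133360325 (plus), Gpha2 at chr19:6226380-6227768 (plus), Olfml3 at chr3:103722222-103738001 (minus) and Gsg1l at chr7:125878420-126082411 (minus). Adam8 is at chr7:139978932-139992562 (minus), Nr2e3 at chr9:59942771-59960659 (minus), Klhl23 at chr2:69821944-69836651 (plus) and Psmb10 at chr8:105935735-105938444 (minus). The annotation places other genes over parts of Gsg1l, Nr2e3, Adam8, Psmb10 and Gpha2, and none of those genes exceeded 12.6 CPM (counts relative to 1000000 UMIs of a library's scaled total) in a library (the highest was one of those over Adam8). Ren2, the near copy of Ren1 that some mouse strains carry, is not among the genes counted here, so Ren1 is uncertain to the extent that reads of such a copy were counted with it.

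The sequence upstream of the start was in the RefSeq table for 7 of the 9 members. The 250 bases before the RefSeq start (GRCm38.p6), which can lie apart from the gene starts given above, were searched on both strands for GCGGGGGCG (the site shared by EGR1 and WT1), GCGTGGGAG (WT1), GTGGGNG (the WT1 core), CAAGGTCA (NR5A1) and GTAAACA (forkhead factors). These matches are found in 2.57%, 0.405%, 28.1%, 1.33% and 3.17% of all 32851 such windows. Olfml3 held the EGR1 and WT1 site and a WT1 core, Psmb10 held 2 WT1 cores and the NR5A1 site, Adam8 held the forkhead site, and the windows of Ren1, Klhl23, Nr2e3 and Gpha2 held none of them. The 3 windows with a match are shown because WT1 and NR5A1 bear on the genotypes compared, and that of Ren1 is shown as one without a match. They read 5′ to 3′ on the strand of the gene, with the matched letters in capitals, which are the reverse complement of the motif where it lies on the other strand.
Olfml3 (chr3:103738002-103738251, minus): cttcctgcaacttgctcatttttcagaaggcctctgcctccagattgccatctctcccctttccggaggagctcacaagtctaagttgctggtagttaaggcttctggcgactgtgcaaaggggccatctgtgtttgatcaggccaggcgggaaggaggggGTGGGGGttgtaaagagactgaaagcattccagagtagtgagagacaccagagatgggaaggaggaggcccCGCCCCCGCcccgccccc
Psmb10 (chr8:105938393-105938642, minus): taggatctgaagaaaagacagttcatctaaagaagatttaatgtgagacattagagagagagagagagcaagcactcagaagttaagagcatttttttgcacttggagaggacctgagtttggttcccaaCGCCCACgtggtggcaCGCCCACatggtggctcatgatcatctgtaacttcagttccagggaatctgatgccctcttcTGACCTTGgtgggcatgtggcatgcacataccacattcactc
Adam8 (chr7:139992563-139992812, minus): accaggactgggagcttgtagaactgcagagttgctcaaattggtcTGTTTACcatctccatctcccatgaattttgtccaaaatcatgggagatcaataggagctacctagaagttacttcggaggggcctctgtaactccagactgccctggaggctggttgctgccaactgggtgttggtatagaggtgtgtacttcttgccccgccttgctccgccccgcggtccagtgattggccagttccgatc
Ren1 (chr1:133350424-133350673, plus): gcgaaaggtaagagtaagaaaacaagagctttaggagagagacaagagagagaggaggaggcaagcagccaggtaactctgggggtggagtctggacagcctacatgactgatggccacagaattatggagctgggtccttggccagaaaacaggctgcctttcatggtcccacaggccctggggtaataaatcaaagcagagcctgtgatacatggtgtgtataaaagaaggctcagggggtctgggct
A match in letters is no measure of binding.

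Levels were taken over gonadal somatic cells, that is all kept cells outside the clusters named germ cell, endothelial, erythrocyte, immune or mesonephric duct. There were 4117 to 7768 such cells and 56276096 to 98213534 UMIs per library. Wt1, counted at its shared 3′ end and so unable to tell the variants apart, was at 171 to 305 CPM in all 12 libraries, and Xist was at 525 to 721 in XX and at most 0.165 in XY libraries. Libraries shared 6 to 46 cell barcodes per pair, at most 0.451% of the smaller library. The library XY +KTS KO replicate 1 stood apart: 8 immediate early genes summed to 2460 CPM there and to 341 to 704 in the 11 others, and 48.8% of its somatic cells fell into 1 cluster (number 10) that held few cells of other libraries. The part of this difference in the results was not tested, and levels, folds and list counts that include it are also given without it, an alternative chosen after seeing the data.

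Among the hormone and secreted products, Pnmt was near 0 in -KTS KO. It was at 1.59 and 1.45 (XX) and 18.6 and 22.5 (XY) in WT, at 0.123 and 0.126 (XX) and 0.113 and 0.0969 (XY) in -KTS KO, and at 53.5 and 40.8 (XX) and 21.0 and 31.3 (XY) in +KTS KO. The -KTS KO values rest on 7 to 10 UMIs per library. XX +KTS KO lay above every other library and 31.0-fold above the XX WT mean, whereas XY +KTS KO overlapped with XY WT, at 1.27-fold of its mean (1.52-fold, and above both XY WT libraries, without XY +KTS KO replicate 1). Ren1 was at 2.34 and 1.39 (XX) and 102 and 11.8 (XY) in WT, at 0.740 and 0.628 (XX) and 1.49 and 0.993 (XY) in -KTS KO, and at 22.2 and 42.3 (XX) and 23.9 and 24.2 (XY) in +KTS KO. The pair of XY WT libraries differed more for Ren1 than for any other member, and XY +KTS KO lay between them.

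Gpha2 was low but ordered. It stood at 5.98 and 4.68 (XX) and 11.1 and 6.86 (XY) in WT, at 0.974 and 1.08 (XX) and 1.73 and 2.66 (XY) in -KTS KO, and at 21.3 and 26.1 (XX) and 14.8 and 25 (XY) in +KTS KO. All 4 +KTS KO libraries were above all WT libraries, and all WT libraries above all -KTS KO libraries. Olfml3 was at 8.23 and 14.2 (XX) and 116 and 114 (XY) in WT, at 19.4 and 14.0 (XX) and 24.7 and 17.3 (XY) in -KTS KO, and at 142 and 136 (XX) and 67.6 and 129 (XY) in +KTS KO. XX +KTS KO was 12.4-fold above the XX WT mean, while the XY +KTS KO libraries lay on both sides of the XY WT pair.

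Of the surface proteins, Gsg1l stood at 1.69 and 1.72 (XX) and 8.74 and 4.99 (XY) in WT, at 0.234 and 0.233 (XX) and 0.227 and 0.230 (XY) in -KTS KO, and at 28.1 and 24.5 (XX) and 17.7 and 21.0 (XY) in +KTS KO. The 3 genotypes did not overlap in either sex, with +KTS KO highest at 15.4-fold (XX) and 2.81-fold (XY) of the WT mean (3.05-fold in XY without XY +KTS KO replicate 1). Adam8 was at 75.3 and 41.5 (XX) and 6.59 and 19.1 (XY) in WT, at 2.76 and 2.06 (XX) and 2.43 and 2.46 (XY) in -KTS KO, and at 84.6 and 38.0 (XX) and 59.4 and 57.4 (XY) in +KTS KO. Its XX +KTS KO and XX WT libraries overlapped with nearly the same mean (1.05-fold), and only the XY libraries were apart, at 4.55-fold (4.47-fold without XY +KTS KO replicate 1).

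The nuclear receptor Nr2e3 resembled Adam8. It stood at 26.6 and 18.2 (XX) and 2.81 and 8.49 (XY) in WT, at 0.950 and 0.664 (XX) and 1.09 and 0.751 (XY) in -KTS KO, and at 34.1 and 25.5 (XX) and 23.7 and 40.1 (XY) in +KTS KO. The XX +KTS KO and XX WT libraries overlapped, and XY +KTS KO was at 5.64-fold of the XY WT mean (7.09-fold without XY +KTS KO replicate 1). Klhl23 was at 169 and 164 (XX) and 81.2 and 144 (XY) in WT, at 29.8 and 29.3 (XX) and 23.5 and 36.9 (XY) in -KTS KO, and at 278 and 247 (XX) and 197 and 243 (XY) in +KTS KO. Psmb10 was at 41.0 and 36.4 (XX) and 48.6 and 61.5 (XY) in WT, at 22 and 20.1 (XX) and 20.8 and 21.3 (XY) in -KTS KO, and at 151 and 126 (XX) and 95.4 and 138 (XY) in +KTS KO. The +KTS KO was at 1.58-fold and 1.95-fold of the XX and XY WT means for Klhl23 and at 3.57-fold and 2.12-fold for Psmb10, with 2.16-fold and 2.52-fold in XY without XY +KTS KO replicate 1. The 6 immune markers, in cells where immune clusters had been left out, summed to 2.06 to 2.35 CPM in XX +KTS KO and 0.628 to 1.23 in XX WT, and to 0.801 to 1.54 in XY +KTS KO and 0.853 to 0.956 in XY WT. Their part in the Psmb10 level was not tested.

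Across the set, all 4 +KTS KO libraries lay above all 4 -KTS KO libraries for 9 of 9 members, which held for 17.9% of all tested genes. All 4 +KTS KO libraries lay above the other 8 libraries for 4 of 9 members (Gsg1l, Klhl23, Psmb10 and Gpha2; 4.5% of all genes). In XX gonads +KTS KO was above WT without overlap for 7 of 9 members (26.9% of all genes), all but Nr2e3 and Adam8. In XY gonads it was above WT for 6 of 9 members (28.0% of all genes), all but Pnmt, Ren1 and Olfml3. With XY +KTS KO replicate 1 left out the latter count was 8 of 9 (39.1% of all genes), and with XY WT replicate 1 left out it was 7 of 9 (35.8%). These counts were fixed in part by the choice of the genes. In a summed level, fewer cells that hold a gene and less of its RNA per cell cannot be told apart.

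**Figure D1:**
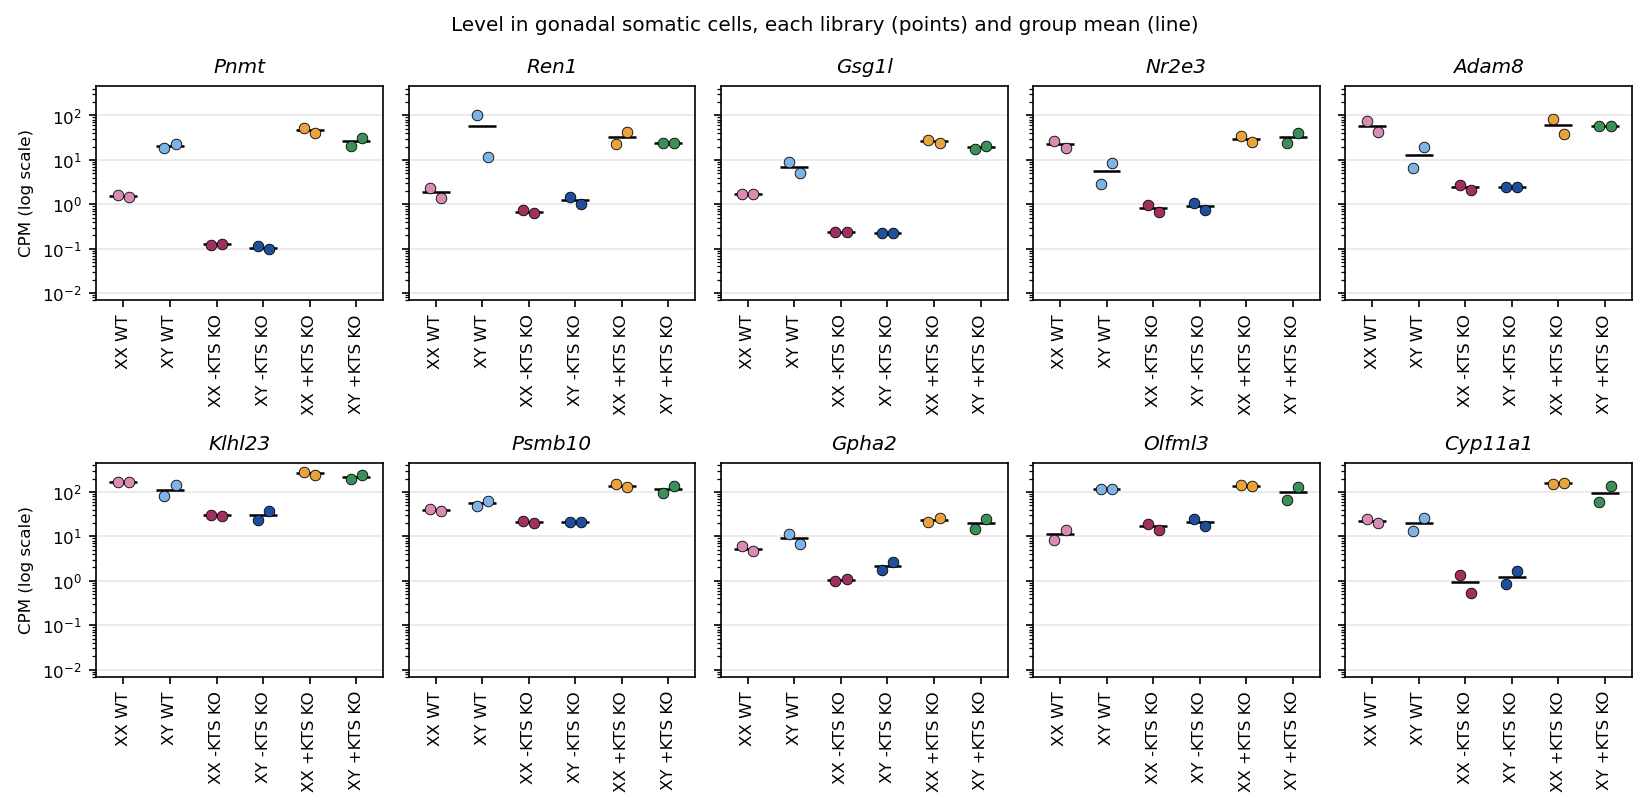
Level of each member and of Cyp11a1 in gonadal somatic cells, in CPM on a log axis, for the 6 groups. Points are the 2 libraries of a group and lines their mean. In all panels both -KTS KO groups lie below both +KTS KO groups, and Ren1 in XY WT has the widest pair (102 and 11.8).

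The -KTS KO against WT comparisons asked whether the summed levels of the members differed without the -KTS variant, and they played no direct part in the choice of the genes. The study found no Sertoli or pre-granulosa clusters in -KTS KO gonads. Here -KTS KO cells made up 0.308% of the pre-granulosa-like cluster 2 and 0.242% of the Sertoli-like cluster 4. They made up 99.7% of cluster 6, which took the pre-granulosa name on a weaker marker score. That score, the mean log2 difference of the markers from all other cells, was 0.711 there and 2.29 in cluster 2. Cluster 6 was led by Wfdc10, Wfdc13 and Cpa1, so its name does not show pre-granulosa cells in the -KTS KO. Missing cells and less RNA per cell cannot be told apart in these sums. Leading genes of a cluster are ranked against all other cells, those of the -KTS KO included, so low values there favoured a gene to some degree. In XX gonads 7 of 9 members were lower in -KTS KO than in WT, beside 9.61% of all genes, and 0 were higher, beside 6.8% (edgeR quasi-likelihood test over all genes, Benjamini-Hochberg adjusted p under 0.05). Nr2e3 fell by 4.77 on the log2 scale (SE 0.545, adjusted p = 0.000642), Adam8 by 4.59 (SE 0.568, adjusted p = 0.0009) and Pnmt by 3.60 (SE 0.312, adjusted p = 0.000204). Gsg1l fell by 2.86 (SE 0.300, adjusted p = 0.00044), Klhl23 by 2.5 (SE 0.283, adjusted p = 0.000614), Gpha2 by 2.38 (SE 0.346, adjusted p = 0.002) and Psmb10 by 0.88 (SE 0.191, adjusted p = 0.0132). For Ren1 the log2 difference was -1.42 (SE 0.868, adjusted p = 0.311) and for Olfml3 it was 0.57 (SE 0.334, adjusted p = 0.288), so neither passed. The Psmb10 call was lost without XX -KTS KO replicate 1, XX -KTS KO replicate 2 or XX WT replicate 1 (adjusted p = 0.0643, 0.118 and 0.0915) and with doublets put back (adjusted p = 0.0514), while the other 6 calls held in all 10 alternatives run.

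In XY gonads 9 of 9 members were lower in -KTS KO, beside 12.4% of all genes. Pnmt showed the largest difference and fell by 7.60 on the log2 scale (SE 0.307, adjusted p = 1.83e-06). It was followed by Ren1, which fell by 5.53 (SE 0.889, adjusted p = 0.00206), and Gsg1l, which fell by 4.90 (SE 0.295, adjusted p = 1.25e-05). Without XY WT replicate 1 the Ren1 difference was -3.26 (adjusted p = 0.00126), smaller than the -4.44 of Gsg1l, and without XY WT replicate 2 it was -6.37. Nr2e3 fell by 2.62 (SE 0.510, adjusted p = 0.00542), Olfml3 by 2.46 (SE 0.346, adjusted p = 0.00105) and Adam8 by 2.39 (SE 0.525, adjusted p = 0.00962). Gpha2 fell by 2.03 (SE 0.327, adjusted p = 0.00208), Klhl23 by 1.90 (SE 0.277, adjusted p = 0.00124) and Psmb10 by 1.39 (SE 0.193, adjusted p = 0.000975). The members' median log2 difference was -2.5 in XX and -2.46 in XY, against 0.01 and 0.02 over all genes tested. Both WT libraries lay above both -KTS KO libraries for 8 of 9 members in XX (32.2% of all genes) and 9 of 9 in XY (30.3%). The effect itself differed between the sexes for 3 of 9 members, Pnmt, Olfml3 and Gsg1l, beside 3.06% of all genes, and passed in 7, 5 and 2 of 8 fits with 1 library left out. For all 3 the levels in the -KTS KO were near each other in both sexes, so this largely restates the difference between the WT sexes. The Adam8 call was lost when either XY -KTS KO library or XY WT replicate 2 was left out (adjusted p = 0.0611, 0.067 and 0.0719), and the Nr2e3 call when XY -KTS KO replicate 2 was left out (adjusted p = 0.0581). Without XY WT replicate 2 the log2 differences of Adam8 and Nr2e3 were -1.43 and -1.61, and without XY WT replicate 1 that of Nr2e3 was -3.21. Cyp11a1, which is no member, fell by 4.56 in XX (SE 0.572, adjusted p = 0.000947) and by 3.96 in XY (SE 0.550, adjusted p = 0.000965).

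Between WT gonads of the 2 sexes, 4 of 9 members were higher in XY, beside 7.07% of autosomal genes, and 2 of 9 were lower, beside 6.48%. Low WT values favoured the choice of these genes, so the direction in each sex is not independent of it. Ren1 was higher by 4.95 on the log2 scale (SE 0.858, adjusted p = 0.00578), Pnmt by 3.76 (SE 0.229, adjusted p = 4.36e-05), Olfml3 by 3.36 (SE 0.360, adjusted p = 0.000592) and Gsg1l by 2.01 (SE 0.239, adjusted p = 0.00103). Adam8 fell by 2.19 from XX to XY (SE 0.503, adjusted p = 0.02) and Nr2e3 fell by 1.99 (SE 0.464, adjusted p = 0.0213). Klhl23 (-0.56, SE 0.268), Psmb10 (0.51, SE 0.190) and Gpha2 (0.76, SE 0.312) did not pass, with adjusted p of 0.206, 0.11 and 0.145, although Klhl23 passed without XY WT replicate 2 (log2 difference -1.04, adjusted p = 0.0433). The Adam8 call was lost without XX WT replicate 1 (adjusted p = 0.12) and without XY WT replicate 1 (adjusted p = 0.107). The Nr2e3 call was lost without either XX WT library or XY WT replicate 1 (adjusted p = 0.114, 0.0542 and 0.0894), and the Ren1 call without XX WT replicate 2 (adjusted p = 0.0617). The size for Ren1 rested on XY WT replicate 1, without which it was 2.68 (adjusted p = 0.00707), below Pnmt (3.89) and Olfml3 (3.34), and it was 5.79 without XY WT replicate 2. For Adam8 and Nr2e3 the differences were -3.15 and -3.00 without XY WT replicate 2, and for Nr2e3 -1.40 without XY WT replicate 1.

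Cluster 0, led by Pnmt and other members, held 0.974% of the somatic cells of XY +KTS KO replicate 1. It held 32.2% to 42.0% of those of the other +KTS KO libraries, so the choice of the genes favoured high values in those libraries. The choice did not directly use the difference between the sexes of the +KTS KO, although it used the levels in both. Between these sexes, 0 of 9 members and 0 of 17124 autosomal genes (0.0%) passed with edgeR, while 573 genes (3.35%) had an unadjusted p under 0.05 and DESeq2 called 23, none of them a member. The log2 difference of XY from XX was -0.85 for Pnmt (SE 0.200, adjusted p = 0.994) and lay between -0.50 (Olfml3, SE 0.328) and 0.10 (Nr2e3, SE 0.441) for the 8 others. With XY +KTS KO replicate 2 left out, the library standing apart was alone for its sex and was assumed to vary like the other groups. Pnmt then passed as lower in XY (log2 difference -1.17), an outcome that the choice of the genes fixed in part. No other member passed in any of the 10 alternatives, and 5 of the 8 (Ren1, Nr2e3, Adam8, Psmb10 and Gpha2) changed direction when a library was left out. This does not show that the sexes were alike.

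**Figure D2:**
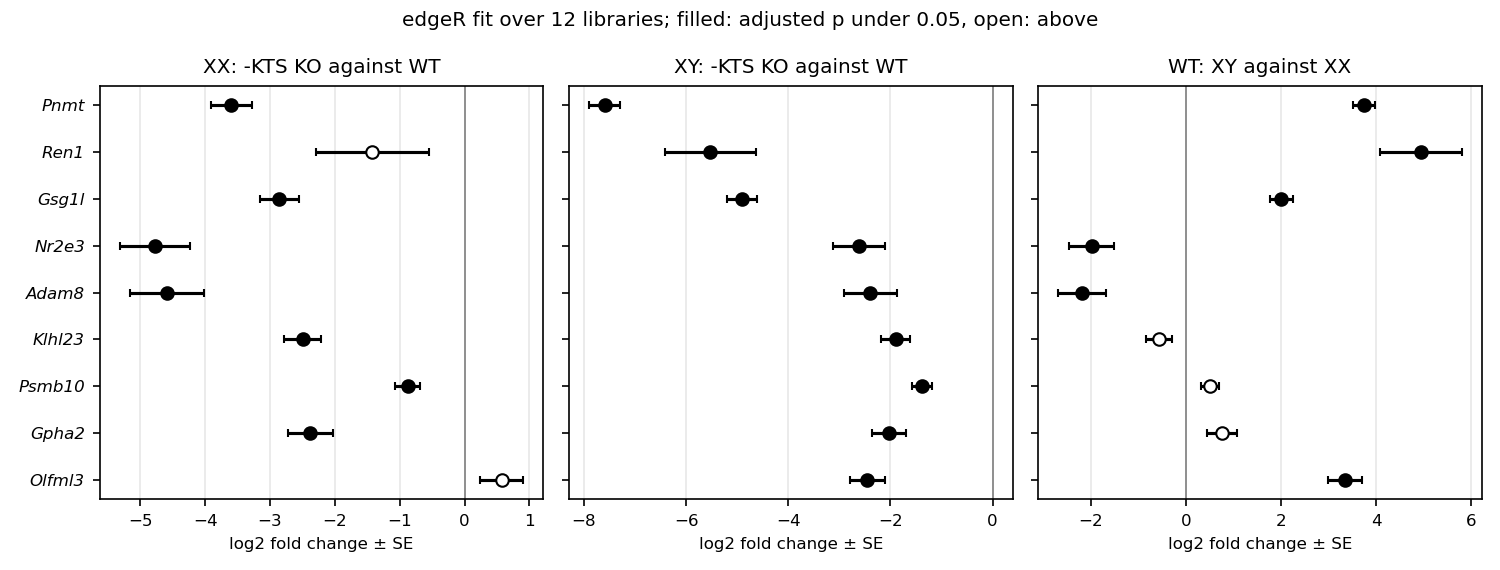
Log2 fold change of each member with its standard error (edgeR, 12 libraries) for -KTS KO against WT in XX and in XY gonads and for XY against XX WT. Filled points passed an adjusted p of 0.05. In the XY panel all 9 members lie to the left of 0, and in the XX panel Ren1 and Olfml3 are open.

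Shares of cells were compared at an equal depth of 5000 UMIs drawn at random from each cell, without the cells below it, which kept 61609 of 66711 somatic cells. The loss was uneven and largest in XY +KTS KO replicate 1 (4877 of 6471 kept) and XX -KTS KO replicate 2 (3160 of 4117 kept), whose shares describe their deeper cells. Klhl23 was detected in 48.8% to 55.8% of cells of the 4 +KTS KO libraries, Psmb10 in 30.9% to 38.4%, Olfml3 in 24.5% to 36.7% and Adam8 in 14.3% to 25.1%. Nr2e3 was detected in 9.86% to 13.9%, Pnmt in 7.59% to 14.0%, Gsg1l in 8.30% to 12.2%, Ren1 in 6.75% to 10.4% and Gpha2 in 6.17% to 9.78%. Without thinning the shares were higher, for example 58.1% to 72.1% for Klhl23, 45.3% to 61.7% for Psmb10, 34.6% to 59.1% for Olfml3 and 12.9% to 22.7% for Pnmt.

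The matching shares in WT followed the levels. Pnmt was detected in 0.619% and 0.812% of XX WT cells and in 4.76% and 4.62% of XY WT cells, and Ren1 in 0.677% and 0.613% of XX and 21.5% and 3.74% of XY cells. Adam8 was detected in 24.8% and 15.7% of XX WT cells, which spans nearly the range of the +KTS KO, and in 2.67% and 7.13% of XY WT cells. In -KTS KO libraries Pnmt was detected in 0.0204% to 0.0643% of cells, that is in 1 to 3 cells per library, and Gsg1l in 0.0857% to 0.158%. Endothelial cells, which should lack most of these genes, gave group shares of at most 0.33% for Pnmt, 0.257% for Nr2e3, 0.855% for Adam8, 1.06% for Gpha2, 1.42% for Gsg1l, 2.56% for Olfml3 and 2.96% for Ren1. The -KTS KO somatic shares of Pnmt, Gsg1l and Ren1 (at most 0.0643%, 0.158% and 0.531%) lay below these highest values, which came from other genotypes. In the -KTS KO itself 0 of 117 (XX) and 0 of 152 (XY) endothelial cells had a UMI of Pnmt, of Gsg1l or of Ren1, which allows up to 2.56% and 1.97% for each gene. So few endothelial cells could not tell shares this low from background. The -KTS KO shares were uneven over clusters. Cluster 6, only weakly pre-granulosa-like by its markers, gave 0.958% for Ren1 and 0.295% for Gsg1l, while clusters 1, 7, 13 and 14 gave at most 0.129% and 0.0833%. Pnmt was at 0.123% in cluster 6, at most 0.0321% in clusters 1, 7 and 13, and at 0.498% of the 201 cells of cluster 14. These Pnmt shares rest on the 1 to 3 cells per library given above, too few to order the clusters. Cluster 14 was also shallow, with a median of 3013 UMIs before thinning. For Ren1, 0 of 1113 and 0 of 874 germ cells of that genotype had a UMI, which allows up to 0.27% and 0.343%. In XX WT replicate 1 the somatic share of Ren1 lay below the 4.0% of endothelial cells (6 of 150). In XX WT replicate 2 it lay above their 0.418% (1 of 239). Of 1343 XX WT germ cells 0 had a Ren1 UMI, which allows up to 0.223%. The -KTS KO share of Nr2e3 (0.190% to 0.388%) lay near the highest share in endothelial cells, but was 0.958% in cluster 6 and at most 0.23% in clusters 1, 7, 13 and 14. For Psmb10 endothelial cells gave 8.87% to 14.5%, and the -KTS KO share of 9.21% to 10.4% lay within that range. It lay above the 3.32% (XX) and 2.97% (XY) of -KTS KO germ cells. For Klhl23 endothelial cells gave 3.94% to 7.20%, below the 10.1% to 14.4% of -KTS KO somatic cells. Median depth before thinning was 14411 to 19277 UMIs in endothelial and 11009 to 14669 in somatic cells of the 6 groups.

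The number of UMIs per positive cell differed as well. A cell with Pnmt held on average 1.52 to 2.03 thinned UMIs in +KTS KO, 1.09 and 1.04 in XX WT and 2.19 and 2.98 in XY WT. In XY WT, Pnmt was thus in fewer cells than in XX +KTS KO but with more UMIs in each. For Klhl23 the values were 2.24 to 2.52 in +KTS KO, 1.53 to 1.89 in WT and 1.11 to 1.16 in -KTS KO. A cell had on average 1.65 to 2.08 of the 9 members in +KTS KO, 0.95 to 1.2 in WT and 0.304 to 0.362 in -KTS KO, and at least 5 of the 9 were found in 4.02% to 9.0%, 0.126% to 0.794% and 0.0% of cells, the last being 0 cells in each -KTS KO library.

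By cluster, most members were detected most in clusters that also had the highest shares of Cyp11a1 in the +KTS KO. The clusters were drawn with genes that include members, so the following values describe them and carry no test. Cluster 0, led by Cyp11a1, Pnmt and Inha, held 28.0% of +KTS KO somatic cells, and there Klhl23 was detected in 80.6%, Psmb10 in 58.5%, Olfml3 in 47.2%, Adam8 in 36.9%, Nr2e3 in 23.4%, Pnmt in 22%, Gsg1l in 18.0%, Gpha2 in 15.9% and Ren1 in 12.4% of cells. Cluster 22, led by Ctrb1, Cyp11a1 and Pnmt, held 3.35% of cells and gave higher shares for all members but Ren1, with Psmb10 at 75.6% and Pnmt at 31.0%. Neither cluster was given a cell type by the markers used. In the coelomic epithelium-like cluster 8, led in part by Krt7 and Krt19 (15.2% of cells), Pnmt was detected in 2.62% and Nr2e3 in 2.70%, and in cluster 9 (10.0%) in 0.708% and 0.875%. Olfml3 was also frequent in the clusters rich in Cyp11a1, at 56.5% of cluster 22, but went otherwise in part. It was detected in 39.0% of cluster 9, where Cyp11a1 was detected in 2.46%, against 31.2% of cluster 10, where Cyp11a1 was detected in 32.9%. Of the 2331 thinned +KTS KO cells of cluster 10, 2287 came from XY +KTS KO replicate 1. XY +KTS KO replicate 1 had 53 thinned cells in cluster 0 and 2287 in cluster 10, a pre-granulosa-like cluster led also by the immediate early genes Fos, Fosb and Junb. Its shares there (Klhl23 74.2%, Psmb10 51.4%, Pnmt 14.4%) were below those of cluster 0 in XY +KTS KO replicate 2 (80.6%, 59.6% and 18.6%).

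In WT the members were spread over clusters of both sexes. The pre-granulosa-like cluster 2 of XX WT (41.9% of cells) gave Klhl23 in 67.8%, Adam8 in 32.7%, Psmb10 in 23.7% and Nr2e3 in 14.3% of cells, but Pnmt in 1.03%, Gsg1l in 0.904% and Ren1 in 0.409%. The Sertoli-like cluster 4 of XY WT (39.1%) gave Klhl23 in 57.7%, Olfml3 in 46.5%, Psmb10 in 33.8%, Ren1 in 12.4%, Pnmt in 8.21%, Gsg1l in 6.14% and Nr2e3 in 4.79%. In cluster 23, pre-supporting-like, led by Ctrb1, Cpa1 and Klk1 and which held 3.78% of the XY WT cells and 2.31% of the XX WT ones, Pnmt was detected in 25.7% of XY and 2.44% of XX cells, while Adam8 was detected in 18.3% of XY and 45.5% of XX cells. In this cluster, which held cells of both sexes, Pnmt and Adam8 differed between the sexes in the direction seen in the whole somatic sum.

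Ren1 was spread differently in the 2 XY WT libraries. In XY WT replicate 1 it was detected in 19.3% of cells of the Sertoli-like cluster, in 25.4% of cluster 23 and in 24.7% and 23.2% of clusters 5 and 11, which were interstitial progenitor-like, cluster 5 being led by mitotic genes such as Aspm, Plk1 and Cdk1. The matching shares in XY WT replicate 2 were 5.08%, 9.14%, 1.89% and 2.09%, so only in replicate 1 were clusters 5 and 11 above the Sertoli-like cluster. In the same replicate 1 library endothelial cells had a share of 3.75% and germ cells of 0.304%, with median depths of 13709 and 21895 UMIs, so the somatic shares were above what those types showed. In the +KTS KO Ren1 was detected in 12.4% of cells in cluster 0 and in 4.43% to 7.42% of cells in clusters 5, 8, 12 (led by histone genes) and 16 (led by immediate early genes).

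**Figure D3:**
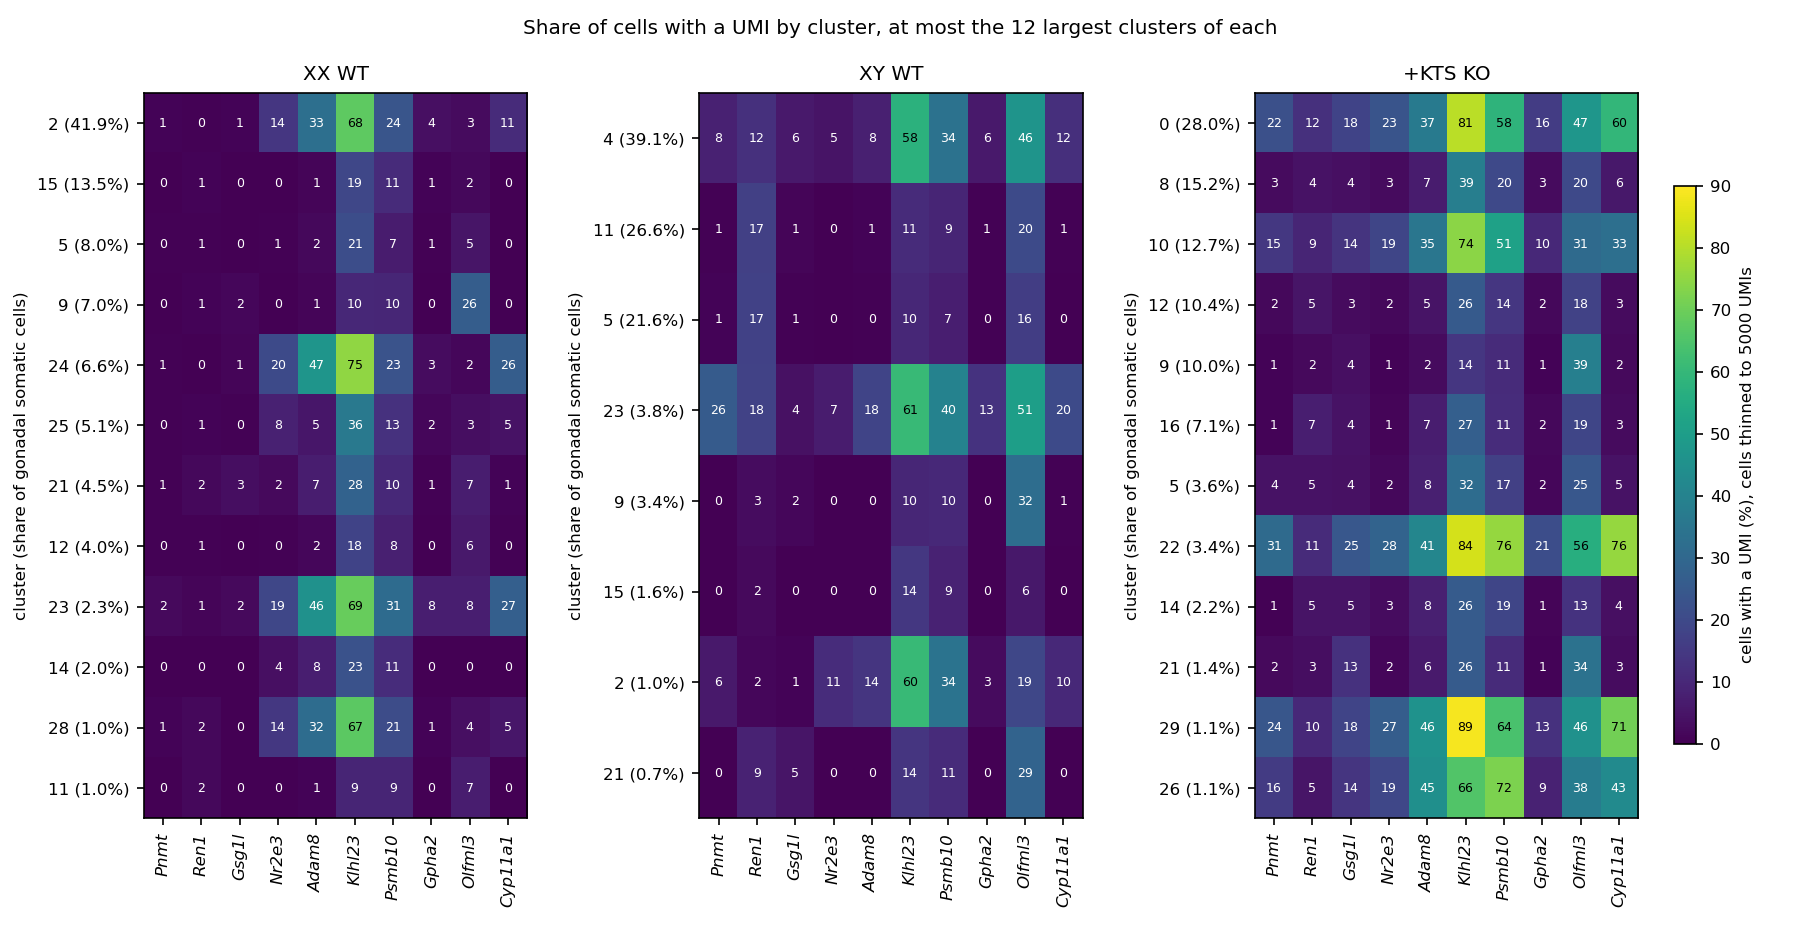
Share of cells with a UMI (%, color and printed numbers, cells thinned to 5000 UMIs) for each member and Cyp11a1 (columns) in the largest clusters (rows, with their share of gonadal somatic cells) of XX WT, XY WT and the +KTS KO of both sexes. In cluster 0 of the +KTS KO every member is at 12.4% or more, while in XX WT cluster 2 Pnmt, Ren1 and Gsg1l are near 0 to 1%.

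Cyp11a1 itself was detected in 32.1%, 31.7%, 17.8% and 29.5% of thinned cells of the +KTS KO libraries (XX replicates 1 and 2, XY replicates 1 and 2), in 4.12% to 8.91% of WT and in 0.158% to 0.428% of -KTS KO cells. The -KTS KO libraries had fewer than 50 Cyp11a1 cells each and were left out of the joint detection. In each +KTS KO library every member was found more often in cells with a Cyp11a1 UMI than in cells without. Cyp11a1 and most members led the same clusters, so this order was fixed in part by the choice of the genes. The ratio of the 2 shares, over the 4 libraries, was 3.02 to 4.97 for Pnmt, 3.18 to 3.53 for Gsg1l, 2.53 to 4.42 for Nr2e3, 2.48 to 4.85 for Gpha2, 2.19 to 4.14 for Adam8, 1.99 to 2.56 for Psmb10, 1.82 to 2.19 for Klhl23, 1.55 to 2.58 for Ren1 and 1.37 to 1.77 for Olfml3. In XX +KTS KO replicate 1, for example, Pnmt was detected in 29.0% of 2366 Cyp11a1 cells (95% exact binomial interval, counting error only, from 27.1% to 30.8%) and in 6.90% of 5000 other cells. The ratio cannot be large for a member common in the other cells, as Klhl23 was (37.7% to 43.4%), so the order of the ratios rests in part on how common each member was.

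In WT the order was alike for some members and not for others. Pnmt gave ratios of 2.71 to 4.59 over the 4 WT libraries, Nr2e3 of 2.56 to 8.63, Gpha2 of 2.73 to 3.48, Gsg1l of 1.22 to 2.84, Adam8 of 2.04 to 3.88, Klhl23 of 1.61 to 2.47 and Psmb10 of 1.43 to 2.00. In XX WT replicates 1 and 2 the ratios rested on only 9 and 9 cells with both genes for Pnmt and 8 and 9 for Gsg1l. Ren1 was found in 13.0% of Cyp11a1 cells against 21.9% of others in XY WT replicate 1 and in 2.22% against 3.89% in replicate 2. In XX WT replicates 1 and 2 it was found in 2 and 0 of the Cyp11a1 cells, too few to give an order. Olfml3 was below 1 in both XX WT libraries (0.335 and 0.533, from 5 and 15 cells with both genes) and at 1.68 and 1.05 in XY WT. Joint detection was not tested, since cells of 1 library are not replicates, and it also rests on the depth and type of a cell.

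Much of the joint detection lay between clusters and less within them. Within cluster 0, in the 3 +KTS KO libraries with enough cells, the ratio was 1.45 to 1.90 for Gsg1l, 1.27 to 1.68 for Pnmt, 1.35 to 1.42 for Nr2e3 and 1.28 to 1.52 for Gpha2. It was 1.04 to 1.10 for Klhl23, 1.06 to 1.11 for Psmb10, 0.993 to 1.31 for Adam8, 0.876 to 1.06 for Olfml3 and 0.748 to 1.19 for Ren1. A ratio of shares has a ceiling that is lower for a common gene. In cluster 0, Klhl23 was in 75.1% to 80.3% of cells without Cyp11a1, and Gsg1l in 12.2% to 14.4%. Ratios of common and rare members are thus not on the same scale. In cluster 10 of XY +KTS KO replicate 1 the ratio was 1.97 for Gsg1l and 1.39 for Pnmt, and 1.04 for Ren1. The mean number of members differed most between cells with 0 and 1 Cyp11a1 UMIs. In XX +KTS KO replicate 1, cells with 0, 1, 2 and at least 3 Cyp11a1 UMIs held on average 1.51, 3.16, 3.30 and 3.41 members. In the 3 other +KTS KO libraries these means were 1.27 to 1.40, 2.70 to 3.08, 2.94 to 3.34 and 3.09 to 3.51.

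**Figure D4:**
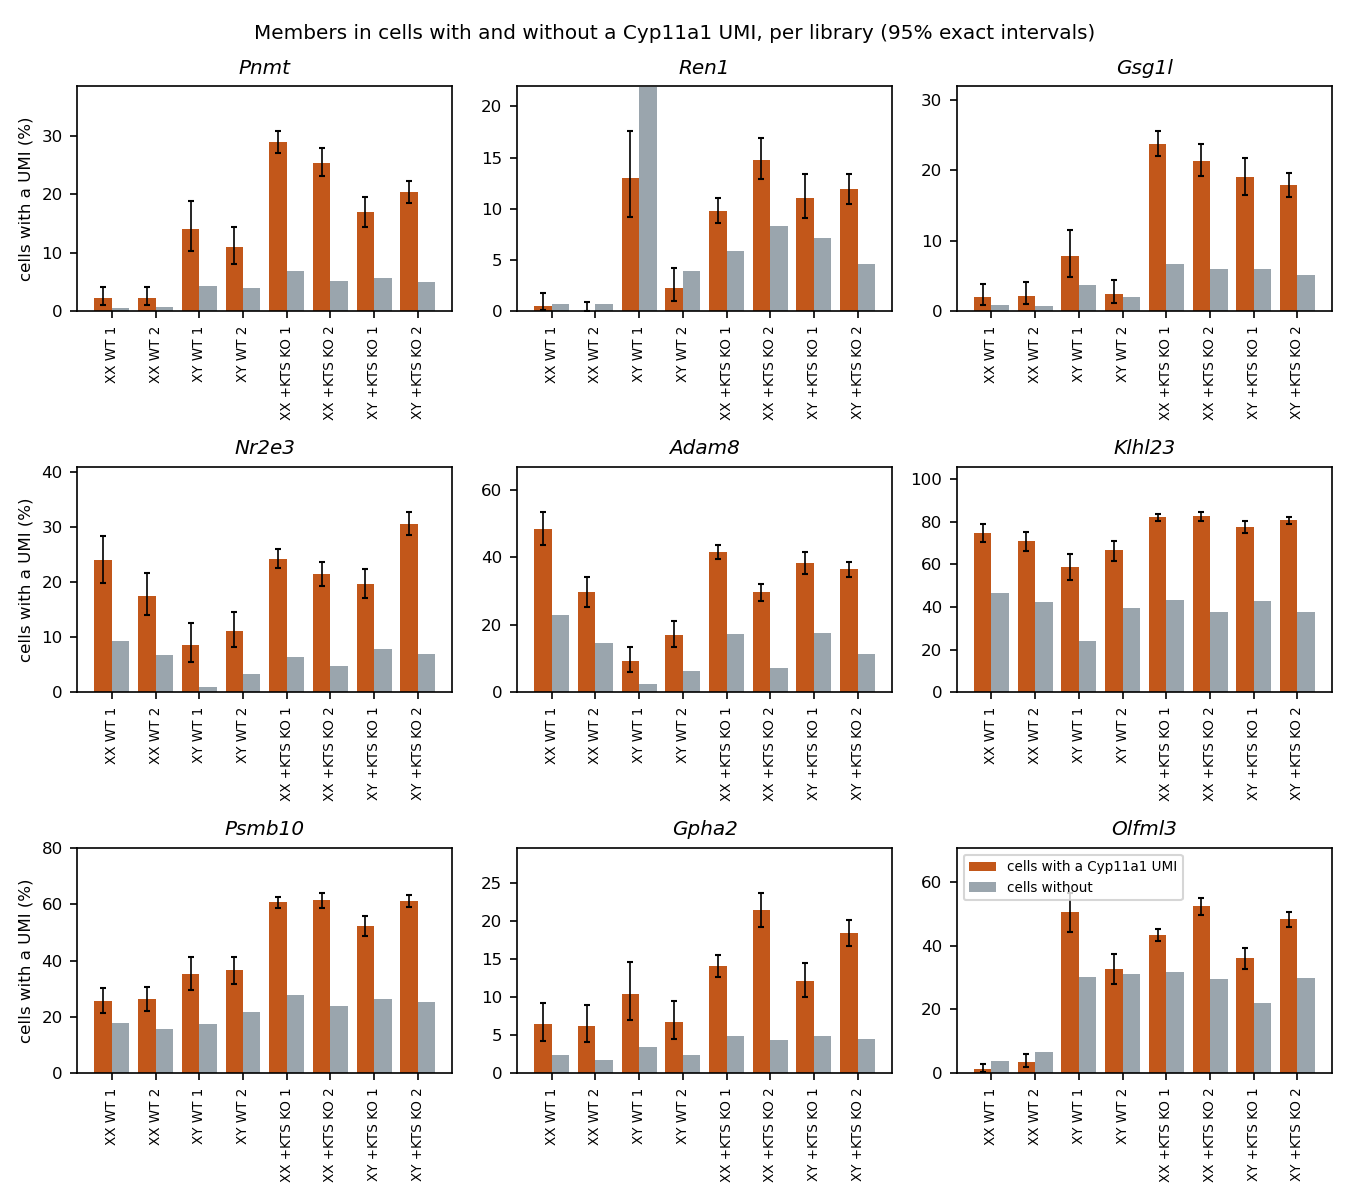
Share of cells (%) with a UMI of each member among gonadal somatic cells with (orange, with 95% exact binomial intervals) and without (grey) a Cyp11a1 UMI, in the 8 WT and +KTS KO libraries. Cells were thinned to 5000 UMIs. The orange bar is the higher one for every member in the 4 +KTS KO libraries, and the lower one for Ren1 in both XY WT libraries. In XX WT too few Cyp11a1 cells held Ren1 to give an order.

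Members were also found together with each other in the +KTS KO, which their choice as leading genes of clusters fixed in part. The observed share of cells with both genes of a pair, divided by the product of the single shares, was highest for Pnmt with Nr2e3 (2.00 to 2.33 over 4 libraries) and Pnmt with Gsg1l (1.87 to 2.34). It was lowest for Pnmt with Ren1 (0.688 to 1.47), Klhl23 with Olfml3 (1.18 to 1.26) and Ren1 with Olfml3 (1.18 to 1.36). This measure also has a lower ceiling for common genes, and Klhl23 was in 48.8% to 55.8% of cells, so low values of its pairs rest in part on that. Of the pairs with Ren1, the highest was that with Gpha2 (1.73 to 2.33). Across 45 sums of cells by cluster and library in the +KTS KO, the gene most like Pnmt by Pearson's r of log2(CPM + 1) was Ctrl, a chymotrypsin-like protease (r = 0.956), and that most like Nr2e3 was Spink4, a protease inhibitor (r = 0.962). Bst2 was most like Gsg1l (r = 0.960), Serpinb6a most like Adam8 (r = 0.970), Rap1a most like Klhl23 (r = 0.973), Gm20275 most like Psmb10 (r = 0.967), Aldh3b1 most like Gpha2 (r = 0.959), Defb19 most like Olfml3 (r = 0.907) and Inhbb, an activin subunit, most like Ren1 (r = 0.867). These sums share libraries and clusters, and the values of r are a description. Ren1 and Olfml3 had the weakest closest partners.

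Partners of the members in their own pathways are given by list. For comparison, over all genes tested 6.8% were higher and 9.61% lower in the -KTS KO of XX gonads and 11.1% were higher and 12.4% lower in that of XY gonads. In the +KTS KO 5.08% (XX) and 12.7% (XY) of all genes passed in either direction, of which 2.38% were higher and 2.7% lower (XX) and 6.21% higher and 6.49% lower (XY), again as shares of all genes. Each call was also made under 10 alternatives, which were other scaling, filters and cell sets, DESeq2, a replicate block and each of the 4 libraries left out. Of the list calls in the -KTS KO, 13 of 45 (XX) and 14 of 35 (XY) held in all 10, and of those in the +KTS KO 0 of 17 (XX) and 6 of 26 (XY) did, so most counts below rest on calls that 1 library or setting could end. All comparisons of a sex share its WT libraries. The counts without XY +KTS KO replicate 1 that follow leave out, among others, the interferon-induced list, whose direction turned there and is given below. The steroid synthesis count among them includes Cyp11a1, and its lower genes are not the ones named below. Without XY +KTS KO replicate 1, where 807 genes were higher and 938 lower of 18369 tested, the XY +KTS KO list counts were 0 higher and 1 lower for the AMPA receptor genes, 1 and 0 for the ADAM proteases, 3 and 0 for the nuclear receptors, 0 and 1 for the KLHL genes and 2 and 2 for steroid synthesis. They were 1 higher and 1 lower each for the catecholamine, renin-angiotensin, glycoprotein hormone and olfactomedin lists.

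Of 9 catecholamine genes tested beside Pnmt, 1 was higher and 4 lower in the XX -KTS KO and 3 were higher and 2 lower in the XY -KTS KO, while the +KTS KO had 0 higher and 2 lower (XX) and 1 higher and 1 lower (XY). Maob, a monoamine oxidase, was lower in the XX -KTS KO in all 10 alternatives (log2 difference -3.54, SE 0.457, adjusted p = 0.00106). It was also called lower in the XX +KTS KO (log2 difference -2.094, SE 0.42, edgeR adjusted p = 0.0228, held in 4 of 10). The list's median log2 difference in the -KTS KO was -0.61 in XX and 0.15 in XY, beside 0.01 and 0.02 over all genes. The enzymes Th and Dbh, which make the substrate of Pnmt, were at or under 0.279 CPM on average in each group. Th was higher in the XY -KTS KO, at 0.279 CPM against 0.00713 in WT (adjusted p = 0.00934), but not without XY WT replicate 2 or XY -KTS KO replicate 1 (adjusted p = 0.0652 and 0.0631). Dbh was higher in the XX -KTS KO, at 0.11 CPM against 0 (adjusted p = 0.038), and held in only 3 of 10 alternatives. Among 4649 somatic +KTS KO cells with a Pnmt UMI before thinning, Th was found in 0 cells, which allows a share of up to 0.0645%, and Dbh in 2. The 8 chromaffin and sympathetic markers summed to 3.30 to 6.96 CPM in XX and 8.14 to 11 in XY +KTS KO, and to 4.53 to 14.1 in WT.

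Of 9 renin-angiotensin genes beside Ren1, 2 were higher and 4 lower in the XX -KTS KO, 1 was higher and 1 lower in the XY -KTS KO, 0 passed in the XX +KTS KO, and 2 were higher and 2 lower in the XY +KTS KO. Mme, a peptidase that degrades angiotensin, rose by 2.34 in the XX -KTS KO (SE 0.320, adjusted p = 0.00149) and fell by 1.89 in the XY +KTS KO (SE 0.316, adjusted p = 0.00572; by 2.10, adjusted p = 0.0148, without XY +KTS KO replicate 1), in all 10 alternatives each. Agt, from whose product renin cuts angiotensin, was lower in both sexes of the -KTS KO, at 0 CPM against 0.374 in XX WT (adjusted p = 0.012) and 0.0192 against 0.587 in XY WT (adjusted p = 0.00901). Both Agt calls held in 6 of 10 alternatives. They were lost without either -KTS KO library, with doublets put back and with all kept cells summed. Over the alternatives the log2 difference of Agt ran from -8.149 to -1.192 in XX and from -5.229 to -1.287 in XY. Of 4 glycoprotein hormone and receptor genes beside Gpha2, 2 were lower in the XX -KTS KO, 1 was lower in the XY -KTS KO, 0 passed in the XX +KTS KO, and 2 were higher and 1 lower in the XY +KTS KO. The luteinizing hormone receptor Lhcgr was the one that held in all alternatives, lower in the XX -KTS KO (log2 difference -3.21, SE 0.490, adjusted p = 0.00245) and higher in the XY +KTS KO (log2 difference 2.86, SE 0.445, adjusted p = 0.00421, and adjusted p = 0.0118 without XY +KTS KO replicate 1).

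For Psmb10, the other immunoproteasome and antigen processing genes were compared with the constitutive subunits. Of 8 such genes, 4 were lower in the XX -KTS KO (Psmb9, Tap1, Tapbp and B2m) and 3 in the XY -KTS KO (Psmb9, Tap1 and B2m), with 0 higher in either, and none of these 7 calls held in all 10 alternatives. Psmb9, another catalytic subunit of the immunoproteasome, fell by 2.25 in XX (SE 0.403, adjusted p = 0.00535; held in 7 of 10) and by 1.68 in XY (SE 0.433, adjusted p = 0.02; held in 5 of 10). Psmb9 did not pass when all kept cells were summed (adjusted p = 0.358 and 0.662). In the +KTS KO 0 of these 8 passed in either sex, and the 7 constitutive beta subunits had 0 calls in all 4 comparisons with WT. Of 12 interferon-induced genes, 6 were lower and 0 higher in each XX comparison with WT. Irf9 held in all 10 alternatives in the -KTS KO, and none of the 6 did in the +KTS KO. In the XY -KTS KO Gbp2 was called higher (held in 7 of 10). In the XY +KTS KO 0 were lower and 1 higher (Irf1, log2 difference 1.262, held in 4 of 10). Without XY +KTS KO replicate 1 the log2 difference of Irf1 was 0.6138 and its call was lost. The direction of the list's calls then turned to lower.

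Among the lists for the surface and nuclear members, 9 ADAM proteases had 3 higher and 1 lower in the XX -KTS KO, 2 higher and 1 lower in the XY -KTS KO, 0 higher and 1 lower in the XX +KTS KO and 2 higher and 0 lower in the XY +KTS KO. Adam23 rose in both sexes of the -KTS KO, by 3.32 (SE 0.439, adjusted p = 0.00121) and 3.87 (SE 0.453, adjusted p = 0.000394), in 8 of 10 alternatives each, and lost the call with doublets put back and with all cells summed. It was also called higher in the XY +KTS KO (log2 difference 2.275, SE 0.446, edgeR adjusted p = 0.0116, held in 7 of 10). That call was lost with doublets put back, with all kept cells summed and without XY WT replicate 1. Over the alternatives its log2 difference ran from -0.9241 to 2.664, so the direction was not kept in all. Without XY +KTS KO replicate 1 that difference was 2.48. Of 11 AMPA receptor genes, 4 were higher and 1 lower in the XX -KTS KO, 2 higher and 1 lower in the XY -KTS KO, 0 in the XX +KTS KO, and 3 higher and 1 lower in the XY +KTS KO. The subunit Gria1 was higher in the XY -KTS KO in all alternatives (log2 difference 2.95, SE 0.567, adjusted p = 0.00509). Of 11 photoreceptor regulators and related nuclear receptors, 1 was higher and 4 lower in the XX -KTS KO, 1 higher and 2 lower in the XY -KTS KO, 1 higher in the XX +KTS KO and 2 higher in the XY +KTS KO. Nr0b1, a regulator of gonad and adrenal development, fell by 3.27 in XX (SE 0.319, adjusted p = 0.000332) and by 1.76 in XY (SE 0.299, adjusted p = 0.0027), and Nr2f1, an orphan nuclear receptor, rose by 2.26 in XY (SE 0.335, adjusted p = 0.00134), each in all 10 alternatives. For Nr0b1 the study reports the reverse in XX -KTS KO pre-supporting cells, where it was raised, and a lower level in XX +KTS KO pre-granulosa cells. Those cell sets are unlike the sum over all somatic cells used here, and the reason for the difference was not tested.

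Of 8 olfactomedin genes beside Olfml3, 5 were higher and 0 lower in the XX -KTS KO, 3 higher and 1 lower in the XY -KTS KO, 1 higher and 1 lower in the XX +KTS KO, and 2 higher and 1 lower in the XY +KTS KO. Myoc, which encodes myocilin, rose in both sexes of the -KTS KO, by 2.73 (SE 0.341, adjusted p = 0.000935) and 2.38 (SE 0.333, adjusted p = 0.00101), Olfm2 rose by 4.29 in XY (SE 0.677, adjusted p = 0.00188), and Gldn fell by 2.93 in the XY +KTS KO (SE 0.263, adjusted p = 0.000399; by 3.42, adjusted p = 0.000195, without XY +KTS KO replicate 1), each in all 10 alternatives. Of 13 KLHL and CUL3 ligase genes beside Klhl23, 0 were higher and 1 lower in the XX -KTS KO, 2 higher and 2 lower in the XY -KTS KO, 0 higher and 1 lower in the XX +KTS KO, and 0 in the XY +KTS KO. Klhl13 was lower in both sexes of the -KTS KO, by log2 differences of -1.46 (SE 0.199, adjusted p = 0.0014) and -1.19 (SE 0.198, adjusted p = 0.00238), in all 10 alternatives. It was also the gene called lower in the XX +KTS KO (log2 difference -1.083, SE 0.197, edgeR adjusted p = 0.0149, held in 6 of 10).

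Of 12 steroid synthesis genes, 1 was lower (Cyp11a1) and 1 higher (Star) in the XX -KTS KO, and 4 were lower and 1 higher (Star) in the XY -KTS KO. Star, which carries cholesterol into mitochondria, rose by 2.01 in the XX -KTS KO in all 10 alternatives (SE 0.322, adjusted p = 0.00313). Hsd17b3, which makes testosterone, fell by 5.13 in the XY -KTS KO (SE 0.993, adjusted p = 0.00531) and was just over the threshold without XY -KTS KO replicate 2 (adjusted p = 0.0505). Cyp11a1 led the same clusters as the members, so its +KTS KO level is a description, at 157 and 97.2 CPM in XX and XY (58.2 and 136 in the XY libraries) against 22.5 and 19.7 in WT. Beside Cyp11a1, the genes Cyp17a1, Scarb1 and Por were called higher in the XX +KTS KO, but none in all 10 alternatives. In the XY +KTS KO Cyp17a1 and Por were called higher and Hsd17b1 and Hsd17b3 lower, of which Por, the electron donor of such enzymes, held in all 10. The calls of Cyp17a1, Hsd17b1 and Hsd17b3 were lost without XY +KTS KO replicate 1 (log2 differences 2.144, -2.199 and -2.313). The fetal adrenal cortex also makes steroids: of its 6 markers Cyp11b1 had 0 UMIs in all groups and Cyp21a1 1 to 13 per group, while the ACTH receptor Mc2r had 226 to 800 and its partner Mrap 42 to 490. Mrap was at 2.3 and 2.83 CPM in the +KTS KO (XX and XY) and at 1.48 and 1.57 in WT, and it was detected in 6.13% of +KTS KO cells with a Pnmt UMI and in 2.47% of those without, before thinning. Mc2r was detected in 58 of the 4649 cells with a Pnmt UMI and in 2.89% of those without. Akr1b7 was at 0.481 and 0.782 CPM in the +KTS KO and at 1.08 and 1.38 in WT, and Hoxb9 at 0.817 and 1.26 against 1.18 and 7.88. Both were also found in smaller shares of cells with a Pnmt UMI (0.387% and 0.968%) than of those without (0.743% and 1.34%). The part of these genes in the results was not tested. The sum of the 6 markers ran from 4.84 to 13.6 CPM in all groups.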

How the data were processed

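The deposited values are raw UMI counts that, per the labels, Cell Ranger 6.0 gave for mm10, with no normalization by the authors. The labels name the 3′ v2 kit and the study's methods version 3. A minimum of 1000 genes and a limit of 10% mitochondrial UMIs left 83513 of 103730 barcodes, from which 5968 likely doublets (highest Scrublet scores, 0.8% per 1000 barcodes; scanpy 1.11.5) were removed. Cells were clustered with Seurat 5.3.0 and sctransform 0.4.2 (3000 genes, 50 components, 20 neighbours, resolution 0.8) into 34 clusters, named from marker lists.

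Counts of gonadal somatic cells were summed per library and tested with edgeR 4.0.16 in 1 fit of 12 libraries (TMM scaling, filter on low counts, Benjamini-Hochberg adjustment, threshold 0.05), with the X and Y chromosomes left out of counts between sexes. SE is the log2 fold change divided by the root of F. Levels are CPM on the scaled total. DESeq2 1.42.0, other scaling, filters and cell sets, a replicate block and leaving out each library were alternatives. The test was checked on simulated data. The 9 members and all gene lists were chosen with earlier results of these data known. Named were the members, Cyp11a1, list genes past the threshold (mostly those that held under the alternatives, a choice made after their values were seen), and the genes most like each member. The immediate early genes and some clusters named in the text were chosen after their values were seen. Intervals and limits from 3 counts cover counting error only. Library totals were 108111924 to 147968666 UMIs. P-values measure the spread between libraries. The values of 1 gene of the interferon-induced list are not reported here.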

Additional observations from a re-analysis of the deposited data

Results flagged for a closer look

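The log2 effect of -KTS loss differed between the XY and the XX gonad for 3 members, by a test of the difference between the effects (edgeR quasi-likelihood test over all genes, 3.06% of which passed). For Pnmt the log2 effect in XY minus that in XX was -4.001 (SE 0.518, adjusted p = 0.00603), and it passed in 7 of 8 fits that left out 1 library, the exception being XX -KTS KO replicate 1 (adjusted p = 0.053). For Olfml3 the difference was -3.026 (SE 0.477, adjusted p = 0.0136) and passed in 5 of 8 such fits, being lost without XX WT replicate 1, XX -KTS KO replicate 1 or XY -KTS KO replicate 2 (adjusted p = 0.0594, 0.0538 and 0.0627). For Gsg1l the difference was -2.038 (SE 0.435, adjusted p = 0.0373), and it passed in 2 of 8, being kept only when an XY WT library was left out. Both -KTS KO sexes had similar levels of Pnmt (0.124 and 0.105 CPM), Gsg1l (0.234 and 0.229) and Olfml3 (16.7 and 21.0), while the WT levels differed, so the difference largely restates that between the WT sexes (log2 difference 3.76, 2.01 and 3.36) and is no separate evidence. The other 6 members did not pass, although Ren1, Adam8 and Nr2e3 each passed in 1 of 8 fits with 1 library left out (adjusted p = 0.00532, 0.0335 and 0.0224). The fits without 1 library were added after the data were seen.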

How the results depend on the processing

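The 36 member tests gave 360 results under other settings. Of these 338 kept their direction and side of the threshold, 14 lost the threshold, 2 gained it (Klhl23 between WT sexes without XY WT replicate 2, Pnmt between +KTS KO sexes without XY +KTS KO replicate 2) and 6 reversed. Values lost or gained are given beside the results above, and the cause was not tested. All 6 reversals were between the sexes of the +KTS KO, where no member had passed, with 1 library left out. The log2 difference of XY from XX then ranged from -0.815 to 0.095 for Ren1, from -0.334 to 0.439 for Nr2e3, from -0.557 to 0.617 for Adam8, from -0.539 to 0.0145 for Psmb10 and from -0.689 to 0.0904 for Gpha2, and Nr2e3 was also at -0.111 without XX +KTS KO replicate 2. The list calls were put through the same alternatives after the data were seen. The count of genes passing in XX -KTS KO against WT was 2909, 1511 with doublets put back, 1475 with all kept cells summed and 1177 to 1473 with 1 library left out. In XY it was 4169, 2450, 2371 and 2140 to 2704. For XY against XX WT it was 2319, 1190, 1127 and 754 to 1875. For XY against XX +KTS KO it was 0, with 23 by DESeq2, 1 without the filter on low counts and 0 to 120 with 1 library left out. For XX +KTS KO against WT it was 900, with 1525 by DESeq2, 453 with doublets put back, 462 with all cells summed, 1389 without the filter and 146 to 307 with 1 library left out, and for XY it was 2250, with 710 to 3054. The median share of cells over the members in the +KTS KO was 12.3%, 8.51% at 3000 UMIs and 22.7% without thinning.

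The replicate numbers did not pair the libraries (correlations of same-numbered deviations from -0.213 to 0.167). With the replicate block the counts were 2771, 3972, 2061, 0, 805 and 2007, in the order above, and no member call changed. With 2 libraries a group, the test on simulated counts of XX -KTS KO and XX WT (17726 genes) called 36.4% of the genes changed 2-fold and 76.6% of those changed 4-fold.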
